A study of Mus musculus with 155 samples.

Results

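The messenger RNA of 5 genes of glycolysis, Hk1, Aldoa, Gapdh, Eno1 and Pkm, was described cell by cell in 5 sorted populations of the adult mouse brain. The members were chosen by gene symbol, and all 5 were found among the 3422 genes of the deposited table. Cells of the subventricular zone, where new neurons arise along the lateral ventricle, and of the corpus callosum, a large tract of myelinated axons, were taken from mice aged 8 to 10 weeks. They were sorted by GFP driven from Gad67 (Gad1) and by Tomato driven from Olig2, and each cell was sequenced with SMART-Seq2, which reads whole transcripts. The OligNBL population held 40 cells positive for both reporters, from a cross of CB6-Tg(Gad1-EGFP)G42Zjh/J and Olig2-tdTomato TH39Gsat/Mmcd mice. NBL held 27 GFP-positive cells of the CB6-Tg(Gad1-EGFP)G42Zjh/J strain, and OL held 22 Tomato-positive cells of the Olig2-tdTomato TH39Gsat/Mmcd strain. The labels place these 3 populations in mice demyelinated with LPC, a lipid that strips myelin, 6 days earlier. O (29 cells, Tomato, the same strain as OL) and NB (37 cells, GFP, the same strain as NBL) came from healthy mice with no injection. The titles of the OligNBL cells carry a control mark, which goes against the labelled lesion, and the labelled state is used here. Comparisons across gates are also comparisons across strains, and strain and gate cannot be told apart.

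Glycolysis breaks glucose down to pyruvate in the cytosol and yields ATP and NADH on the way. Hexokinase commits glucose to the cell by adding a phosphate, aldolase splits the resulting 6-carbon sugar phosphate, glyceraldehyde-3-phosphate dehydrogenase makes NADH, enolase prepares the last intermediate, and pyruvate kinase makes ATP and pyruvate. In the brain, pyruvate can pass to the mitochondria or be turned to lactate, and myelinating oligodendrocytes are known to pass lactate on to axons.

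Each condition had 5 mice, but no cell is tied to a mouse, so a population counted as 1 sample and no p-value was computed. Column totals of the table differed by 0.101%, as quantile normalization would leave them, and say nothing of sequencing depth. A level below is the mean of log2(value + 1) over the cells of a population, with the SD between cells, which is a spread of cells and not of mice. A gene was called present in a cell where it was among that cell's 500 highest genes, which are 14.6% of the table in every cell; 2 NB cells with fewer detected genes were left out of presence. Intervals for shares are exact 95% Clopper-Pearson intervals; for a count of 0 the limit given is instead 3 counts of the total, and both cover counting error only. The values are not per length, so levels are compared between populations and not between genes. The median number of genes detected per cell was 1397 in OligNBL, 1161 in NBL, 950.5 in OL, 1187 in O and 1114 in NB. An exact 0 can be a failed estimate, since Actb, the cytoskeletal actin, was at 0 in 4 cells and Eef1a1, a translation factor every cell uses, in 70. The summed level of 11 measured genes of mature oligodendrocytes had its median at 99.3 in OL and 72.8 in O, against at most 1.60 in the other populations. The median of 13 summed neuroblast genes was 46.2 in OligNBL, 35.4 in NBL, 12 in OL, 10.5 in O and 38.3 in NB. The median of 6 summed progenitor genes was 11.4 in OligNBL, 2.72 in NBL, 4.35 in OL, 6.72 in O and 0 in NB. The EGFP transcript followed the gate, with levels of 3.48 in OligNBL, 2.42 in NBL, 0.36 in OL, 0.43 in O and 5.19 in NB. The TdTomato transcript did not follow the gate, with levels of 0.31 in OligNBL, 0.31 in OL and 0.35 in O, against 1.14 in NBL and 0.18 in NB. Only 1 of 9 astrocyte and stem cell markers (S100b) and 1 of 10 endothelial and mural markers (Pecam1) could be measured. None of the 11 microglia and 6 ependymal markers looked up was among the genes of the table. Pecam1 was at 8.11 in OligNBL, 8.59 in NBL, 8.49 in OL, 10.53 in O and 6.54 in NB and was present in at least 91.4% of the cells of each population, while S100b stood between 0.90 in OligNBL and 2.30 in OL; their part in the members' differences was not tested.

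Each member had its own distribution over the populations, and none was high in all 5. Hk1 was largely an OligNBL gene and Aldoa an OL gene, Gapdh was highest in NB cells, Eno1 was highest in OligNBL cells, and Pkm was high in OligNBL and NBL cells.

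**Figure D1:**
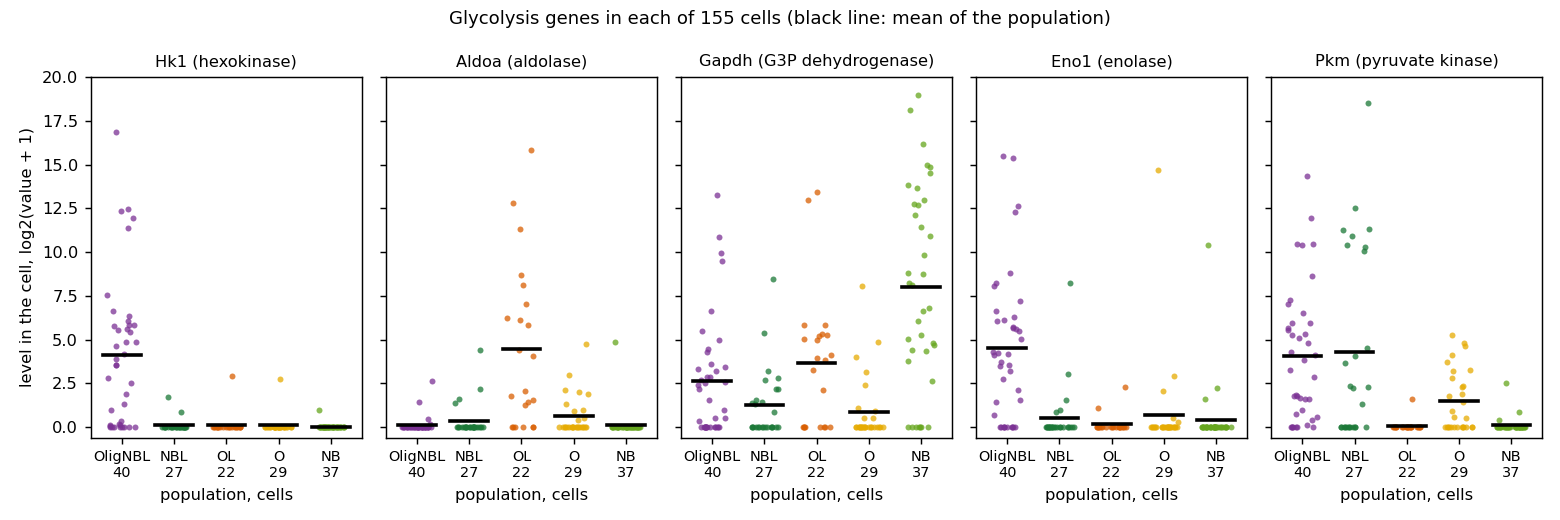
Level of each glycolysis gene, log2(value + 1), in each cell, with populations from left to right and their number of cells under the axis; points are cells and black lines are population means. Hk1 points above 3 lie in OligNBL, while Gapdh reaches its highest mean, 8.01, in NB.

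Hk1, the hexokinase of brain and most other tissues, spanned 0 to 16.86 in OligNBL cells, with a median of 3.70 and 8 of 40 cells at 0. In the other populations it was at 0 in 25 of 27 NBL, 21 of 22 OL, 28 of 29 O and 36 of 37 NB cells, where the NB count includes 1 cell at its lowest value, and its highest cells reached 1.69 in NBL, 2.93 in OL, 2.75 in O and 0.96 in NB. Thus 22 of 40 OligNBL cells lay above every cell of the other populations, while the ranges overlapped through the OligNBL cells at or near 0. The mean level was 4.14 ± 4.23 in OligNBL (SD, n = 40), against 0.09 ± 0.36 in NBL (n = 27), 0.13 ± 0.63 in OL (n = 22), 0.09 ± 0.51 in O (n = 29) and 0.03 ± 0.16 in NB (n = 37). Hk1 was present in 21 of 40 OligNBL cells (52.5%, interval 36.1 to 68.5). It was present in 0 of 27 NBL cells (limit 11.1%), 0 of 22 OL cells (limit 13.6%), 0 of 29 O cells (limit 10.3%) and 0 of 35 NB cells (limit 8.57%). Hk1 lies on chromosome 10, 62268855 to 62379908, minus strand (GRCm38, GENCODE vM21), and is overlapped by the antisense gene Hk1os. SMART-Seq2 does not mark strand, so reads of the 2 genes cannot be told apart where they overlap.

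Aldoa, the aldolase of muscle and most other tissues, was at 0 in 36 of 40 OligNBL and 23 of 27 NBL cells and present in 0 and 1 of them. In OL cells it spanned 0 to 15.86, with a median of 3.05 and 6 of 22 cells at 0, whereas it was at 0 in 19 of 29 O and 36 of 37 NB cells and present in 1 cell of each. The 11 OL cells in which Aldoa was present (50%, interval 28.2 to 71.8) were spread from 4.06 upwards, a height that 1 NBL, 1 O and 1 NB cell also reached. The mean level was 0.12 ± 0.47 in OligNBL (n = 40), 0.35 ± 0.99 in NBL (n = 27) and 4.48 ± 4.65 in OL (n = 22), against 0.62 ± 1.14 in O (n = 29) and 0.13 ± 0.80 in NB (n = 37). Aldoa lies on chromosome 7, where the annotation gives 2 adjacent protein-coding genes of that symbol, 126795234 to 126800751 and 126800790 to 126809108, minus strand; the table has 1 row, and the sources used here do not say which gene it counts. On the opposite strand the annotation also gives Fam57b and the pseudogene Gm44856 there, neither of them in the table.

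Gapdh, the dehydrogenase in the middle of the pathway and a common reference gene, had its median at 1.87 in OligNBL, 0 in NBL, 3.89 in OL, 0 in O and 8.15 in NB cells. Its highest cell reached 13.25 in OligNBL, 8.45 in NBL, 13.43 in OL, 8.06 in O and 18.99 in NB, and 15 of 40, 15 of 27, 8 of 22, 20 of 29 and 7 of 37 cells were at the lowest value. NB cells were the highest as a group, but the ranges of all 5 populations overlapped, since each held cells at 0. The mean level was 2.62 ± 3.36 in OligNBL (n = 40), 1.24 ± 1.99 in NBL (n = 27), 3.69 ± 3.86 in OL (n = 22), 0.88 ± 1.89 in O (n = 29) and 8.01 ± 5.71 in NB (n = 37). It was present in 10 of 40 OligNBL, 2 of 27 NBL, 12 of 22 OL, 3 of 29 O and 28 of 35 NB cells, which puts NBL at 7.41% (interval 0.91 to 24.3) and NB at 80% (63.1 to 91.6). The 6 NB cells numbered 6 or lower had a mean of 1.17, and the 31 later NB cells a mean of 9.33.

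Reads of Gapdh can also match copies of the gene, and how the deposited values divided such reads was not tested. Gapdh lies on chromosome 6, 125161715 to 125166467, minus strand, and overlaps Iffo1 on the opposite strand, which is also in the table. Of the GENCODE vM21 genes whose transcripts match Gapdh at 90% identity or more over at least 500 bases, 20 have rows of their own in the table, 10 of them at 98% or more. For Hk1, Aldoa, Eno1 and Pkm the annotation held 0, 6, 7 and 7 such genes, none of them in the table. Of those for Eno1, protein-coding Eno1b matched at 99.5% over 1736 bases and the processed pseudogene Gm4735 at 99.6% over 1302. Whether reads of Eno1 were counted for genes outside the table was not tested. The Gapdh copy Gm7336, a processed pseudogene on chromosome 7, 51746647 to 51747878, had no base that differed over the 1002 coding bases. It shared 1131 of the 1371 stretches of 50 bases in the Gapdh transcript (82.5%). Coding bases 31 to 180 are shown for Gapdh and for 2 copies at increasing distance on chromosomes 14 and 19, since a read can be told apart only by bases that differ; capitals mark bases that differ from Gapdh, and the same stretch of Gm7336 has no such base.
Gapdh: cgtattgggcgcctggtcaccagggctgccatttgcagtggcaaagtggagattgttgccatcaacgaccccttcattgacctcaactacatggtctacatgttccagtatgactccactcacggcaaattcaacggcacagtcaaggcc
Gm3839: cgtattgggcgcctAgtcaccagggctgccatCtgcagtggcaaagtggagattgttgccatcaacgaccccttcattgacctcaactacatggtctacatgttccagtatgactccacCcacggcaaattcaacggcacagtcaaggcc
Gm17068: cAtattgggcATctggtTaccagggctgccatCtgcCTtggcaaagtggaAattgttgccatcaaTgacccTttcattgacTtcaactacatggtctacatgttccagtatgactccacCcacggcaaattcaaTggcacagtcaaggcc
Gm3839 differed at 3 of these bases and at 7 of 1002 coding bases, while Gm17068 differed at 13 here and at 52 of 973 aligned coding bases and shared only 1.17% of the 50-base stretches. Gm7336 followed Gapdh: its level was 0.90 in OligNBL, 0.18 in NBL, 2.38 in OL, 0.22 in O and 6.24 in NB, and it was present in 25 of 35 NB cells. Gm17068 did not, with 2.29 in OligNBL, where it was present in 10 of 40 cells, against 0 in NBL, 0.80 in OL and 0.50 in NB. In 14 of the 15 OligNBL cells with Gapdh at 0, the summed value of the 20 copies was 0.5 or more. In none of them did the sum of the 10 copies of 98% identity or more reach 0.5. The sum over all copies reached 0.5 in 4 of 15 NBL, 3 of 8 OL, 9 of 20 O and 2 of 7 NB cells. The sum over the close copies did so in 1 NBL and 1 NB cell.

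Summing Gapdh with its copies in the table, an alternative chosen after seeing the data, kept NB highest. With all 20 copies the level was 5.12 in OligNBL, 1.72 in NBL, 4.76 in OL, 2.31 in O and 8.89 in NB, and with the 10 close copies 2.91, 1.32, 4.16, 0.91 and 8.58 in the same order. The difference of OligNBL minus OL was -1.07 for Gapdh alone, -1.25 with the close copies and 0.36 with all copies, so its direction depended on the copies. The difference of OligNBL minus NBL was 1.39 for Gapdh alone and 3.40 with all copies.

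**Figure D2:**
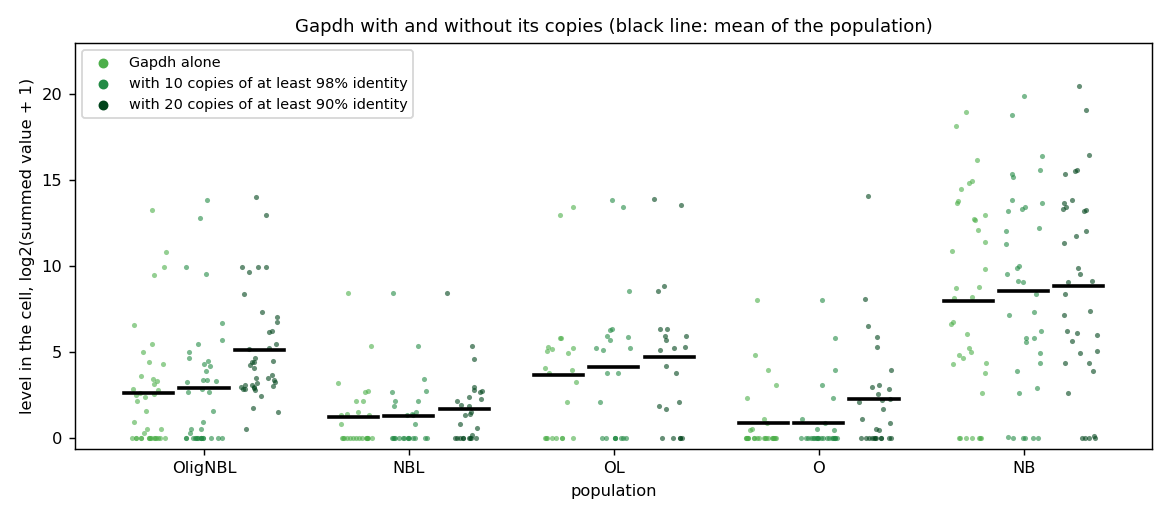
Level of Gapdh alone, with its 10 close copies and with all 20 copies, log2(summed value + 1), in each cell of the 5 populations; points are cells and black lines are population means. NB has the highest mean under each sum, from 8.01 to 8.89, and the mean of OligNBL moves from 2.62 to 5.12.

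Eno1, the enolase found in most tissues, spanned 0 to 15.47 in OligNBL cells, with a median of 4.15 and 10 of 40 cells at 0. It was at 0 in 22 of 27 NBL, 20 of 22 OL, 24 of 29 O and 34 of 37 NB cells, whose medians were all at the lowest value. Single cells of 3 of these populations were nonetheless high: 1 O cell reached 14.70, 1 NB cell 10.40 and 1 NBL cell 8.21. The mean level was 4.50 ± 4.19 in OligNBL (n = 40), against 0.54 ± 1.67 in NBL (n = 27), 0.15 ± 0.53 in OL (n = 22), 0.71 ± 2.77 in O (n = 29) and 0.39 ± 1.75 in NB (n = 37). Eno1 was present in 22 of 40 OligNBL cells (55%, interval 38.5 to 70.7), against 1 of 27 NBL, 0 of 22 OL, 1 of 29 O and 1 of 35 NB cells. Eno1 lies on chromosome 4, 150236721 to 150248879, plus strand.

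Pkm, the pyruvate kinase of tissues other than liver and red cells, spanned 0 to 14.35 in OligNBL cells (median 3.55, 7 of 40 at 0) and 0 to 18.54 in NBL cells (median 2.23, 12 of 27 at 0). It was at 0 in 21 of 22 OL cells, spanned 0 to 5.26 in O cells (median 0.57, 13 of 29 at 0) and was at the lowest value in 34 of 37 NB cells. The ranges of OligNBL and NBL overlapped widely, 1 NBL cell lay above every cell of the other populations, and the highest OL cell, 1.63, lay below the median of both. The mean level was 4.06 ± 3.81 in OligNBL (n = 40) and 4.29 ± 5.41 in NBL (n = 27), against 0.07 ± 0.35 in OL (n = 22), 1.502 ± 1.77 in O (n = 29) and 0.10 ± 0.44 in NB (n = 37). Pkm was present in 20 of 40 OligNBL cells, 11 of 27 NBL cells, 0 of 22 OL cells (limit 13.6%), 5 of 29 O cells and 0 of 35 NB cells (limit 8.57%). Pkm lies on chromosome 9, 59656368 to 59679375, plus strand, where the annotation also gives Gm49759 on the same strand, which is not in the table. The authors' values are per gene, so its M1 and M2 splice forms could not be told apart.

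The difference of levels was taken as called where its size was 1 or more. Hk1, Eno1 and Gapdh were higher in OligNBL than in NBL, by 4.05, 3.96 and 1.39, while Pkm (-0.23) and Aldoa (-0.24) were not called. These are 3 members higher and 0 lower, beside 25.7% of all 3422 genes called higher and 20.3% called lower in this comparison, and the median difference was 1.39 for the members against 0.03 for all genes. The differences of Hk1 and Eno1 were smaller than the SD between OligNBL cells. The Gapdh call was lost without a set of 10 alike OligNBL cells with high Pdgfra (0.70) and without a set of 4 with high Cspg4 (0.95), both described further on. Pkm came to 2.52 without 7 NBL cells numbered 78 to 84, -1.40 without the 11 OligNBL cells in which Eno1 and Pkm were both present throughout, and -1.39 without 11 NBL cells numbered 66 to 77.

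Against OL, OligNBL had Eno1 higher by 4.35, Hk1 by 4.01 and Pkm by 3.98, and Aldoa lower by a difference of -4.37. With Gapdh at -1.07 this gave 3 members higher and 2 lower, beside 27.3% and 21.1% of all genes, and a median difference of 3.98 against 0.13 for all genes. The Gapdh call rested on little: it was lost when any of 22 cells was left out on its own, and the difference was 0.25 without a set of 8 OL cells with high Gapdh and -2.67 without the first 8 OL cells by number. It also came to -1.76 without the 10 OligNBL cells with high Pdgfra, to -0.55 without the last 8 OligNBL cells by number, to -0.39 without the 11 before those, and to -0.38 without a set of 3 OL cells. Aldoa was still called, at -1.98, without the first 8 OL cells. Against NB, OligNBL had Eno1 higher by 4.12, Hk1 by 4.11 and Pkm by 3.95, and Gapdh lower by a difference of -5.38. Here 3 members were higher and 1 lower, beside 27.5% and 18.9% of all genes, and the median difference was 3.95 against 0.08. With the medians of all sets weighted equally, sets of 1 or 2 cells included, Gapdh came to -3.38 against NB. Eno1 came to 2.63 in each of the 3 comparisons of OligNBL.

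Within the GFP gate, lesion against healthy, Gapdh was lower in NBL than in NB by a difference of -6.77, the lowest of all 3422 genes, and Pkm was higher by 4.18. The other 3 members lay between 0.07 and 0.22. With the medians of all sets of alike cells weighted equally, sets of 1 or 2 cells included, Gapdh came to -4.11 and Pkm to 2.64. With 1 call each way, the members stood beside 17.4% of all genes higher and 17.3% lower, and their median was 0.16 against -0.004 for all genes. Pkm remained higher, by 1.44, without the 7 NBL cells numbered 78 to 84. Within the Tomato gate, Aldoa was higher in OL than in O by 3.87 and Gapdh by 2.81, and Pkm was lower by a difference of -1.43. These 2 higher and 1 lower members stood beside 15.9% and 15.7% of all genes, with a median of 0.04 against -0.10. Without the first 8 OL cells by number Aldoa was higher by 1.48 and Gapdh by 4.42. Without the set of 8 OL cells with high Gapdh that gene was higher by 1.4996, and without a set of 10 alike O cells the Pkm difference was -0.88 and no longer called. Gapdh and Pkm therefore differed in opposite directions in the 2 gates, which were not tested against each other.

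Between the healthy populations, Gapdh was lower in O than in NB by a difference of -7.13 and Pkm was higher by 1.40, beside 20.7% of all genes lower and 19.4% higher; the median was 0.32 for the members against 0.09. Without the 10 alike O cells Pkm was higher by 0.85 and no longer called. The comparisons share populations, so their values are not independent of each other. Leaving out the 12 cells numbered 21 or lower changed no count of members called.

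**Figure D3:**
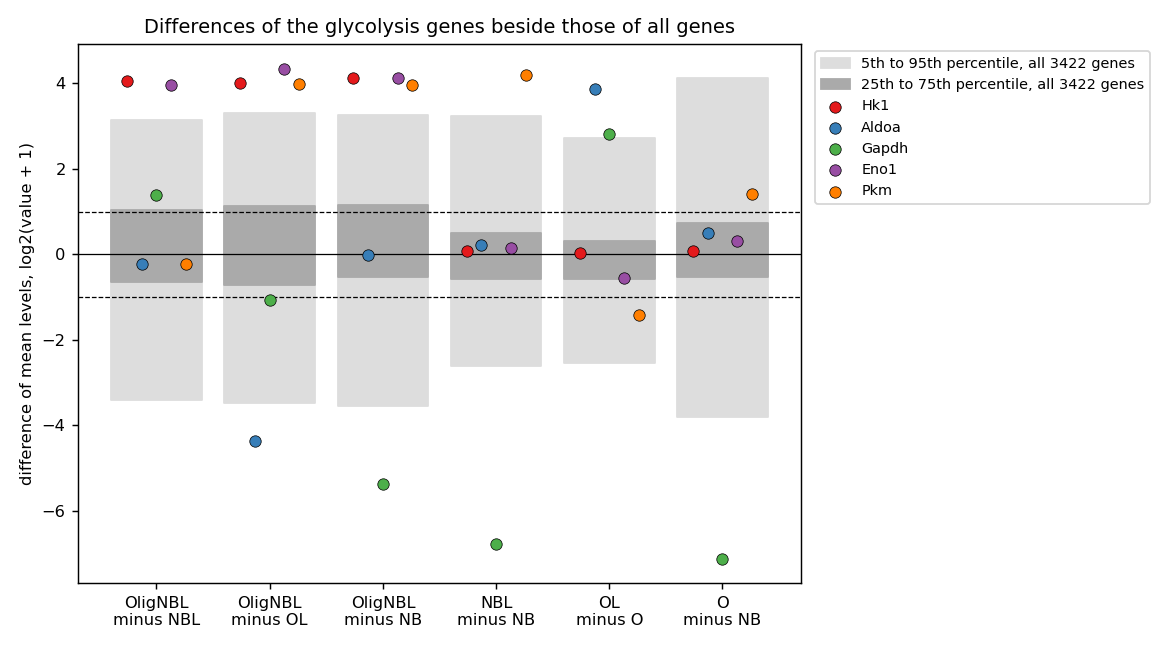
Difference of mean levels of each glycolysis gene in 6 comparisons, on the log2(value + 1) scale, over the spread of the same difference in all 3422 genes (grey bands); dashed lines mark the size of 1 used for a call. Gapdh is the lowest point in 3 comparisons with NB, at -5.38, -6.77 and -7.13, and Hk1, Eno1 and Pkm lie together near 4 in OligNBL minus OL and in OligNBL minus NB.

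Cells with several members present were found mostly in OligNBL. Of its 40 cells, 12 had 3 of the 5 members present, 12 had 2, 13 had 1 and 3 had none, a mean of 1.83 ± 0.96 (SD) per cell. At least 2 members were present in 1 of 27 NBL, 2 of 22 OL, 1 of 29 O and 1 of 35 NB cells, with means of 0.56, 1.05, 0.34 and 0.86. By the size of the table alone, 5 genes at 14.6% give 0.731 per cell. OL and NB cells mostly had exactly 1 member, in 19 of 22 and 28 of 35 cells, and no member was present in 20 of 29 O cells.

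**Figure D4:**
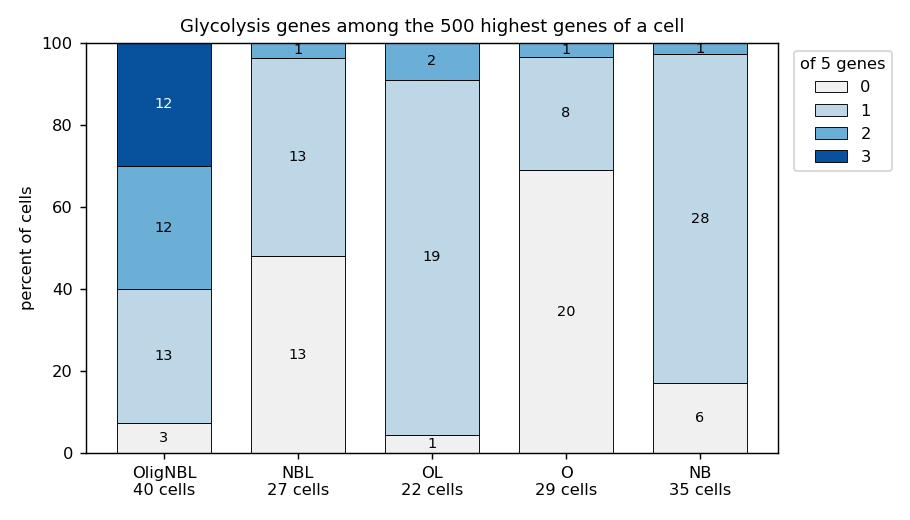
Percent of cells in each population with 0, 1, 2 or 3 of the 5 glycolysis genes among their 500 highest genes; numbers in the bars are cells. OligNBL has 24 of 40 cells with 2 or more, and each other population has 1 or 2 such cells.

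In OL the 2 members that were high divided the cells between them. Aldoa was present without Gapdh in 9 cells and Gapdh without Aldoa in 10, both were present in 2 and neither in 1, and the Spearman correlation over the 22 cells was -0.71. The split followed the cell numbers: Aldoa was between 5.84 and 15.86 in all of the first 8 OL cells, where Gapdh was at 0 in 6, and Gapdh was between 3.96 and 13.43 in all of the next 11, where Aldoa was at 0 in 6. These sets of cells also differed in oligodendrocyte genes: the summed level of the mature list averaged 115.1 in the first 8 cells, 55.4 in the next 3 and 91.5 in the 8 after those. Their part in the result was not tested.

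In OligNBL, Eno1 and Pkm were present together in 14 of 40 cells, Eno1 alone of the pair in 8 and Pkm alone in 6 (Spearman 0.51), whereas Hk1 and Gapdh were present together in 1 cell, Hk1 without Gapdh in 20 and Gapdh without Hk1 in 9 (Spearman -0.50). Cells of like expression mostly had neighbouring numbers, and the members followed these sets. The part of cell number in the differences between populations was not tested. In the last 8 OligNBL cells by number Hk1 was present in all 8, at a mean of 7.26, with Pkm at 0.48 and Eno1 at 1.22. Of the neuroblast genes, these cells had the highest levels among the sets of at least 3 cells of Gad1, the enzyme that makes GABA (11.84), and Tubb3, a neuronal tubulin (13.71). They had the lowest level of Cd24a, a surface marker of neuroblasts (0.48), and 0.80 of Dcx, a microtubule protein of migrating neuroblasts, which reached 11.96 in another set. In the 11 cells before them Eno1 (7.69) and Pkm (7.13) were present in all 11 and Hk1 (5.80) in 8. In another 10 neighbouring cells Eno1 was present in 7 at a mean of 5.62, Gapdh in 3 at 4.70, and Hk1 in 1 at 0.76. Their level of Pdgfra, the growth factor receptor of oligodendrocyte progenitors, was 7.54, and that of Cspg4, the NG2 proteoglycan of progenitors, was 1.47, the lowest of the 5 sets of at least 3 cells. In a set of 4 cells Gapdh (6.59) and Pkm (6.45) were present in all 4, beside 17.19 for Cspg4 and 8.39 for Pdgfra. The summed level of 6 progenitor markers was 43.2 in those 4 cells, 21.3 in the 10, 10.4 in the 8 and 7.78 in the 11. It was 13.9 in the remaining set of at least 3 cells, which held 5 cells. In that set Hk1 (5.88) and Pkm (4.25) were each present in 3 cells, and Gapdh (3.45) and Eno1 (3.24) in 1 each. The part of the progenitor markers in the members' levels was not tested.

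In NBL, Pkm was between 10.09 and 18.54 in all 7 cells numbered 78 to 84, a height that 1 of the other 20 NBL cells also reached (10.40, cell 73). In NB, Gapdh set means were 14.54 in 6 cells numbered between 27 and 34, 9.88 in 11 cells numbered between 22 and 56 and 7.32 in 11 cells numbered 35 to 45, and 4.25 and 0.88 in 2 smaller sets.

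Set means give a stricter comparison, since cells of a set are alike. Over the sets of at least 3 cells, Eno1 did not overlap between OligNBL (1.22 to 7.69) and NBL (0 to 0.84), where 6.78% of all genes did not overlap in that direction and 3.57% in the other. Eno1 and Pkm did not overlap between OligNBL (Pkm 0.48 to 7.13) and OL (Pkm 0 to 0.20), beside 9.44% of all genes higher and 4.03% lower. Pkm did not overlap between OligNBL and NB (0 to 0.42), beside 6.95% higher and 3.45% lower. It was lower throughout in OL than in O (0.43 to 2.55), beside 8.83% of genes lower and 1.72% higher, and higher throughout in O than in NB, beside 15.3% higher and 6.43% lower. No member was apart between NBL and NB, where 1.99% of all genes were apart higher and 1.26% lower. There Gapdh was apart and lower with sets joined at a correlation of 0.5, beside 6.14% of all genes, and Pkm was apart and higher with sets joined at 0.35, beside 3.42%. With sets joined at 0.4, Hk1, Aldoa and Gapdh set means overlapped in all 6 comparisons. Joined at 0.5, Gapdh was also apart and lower in OligNBL than in NB and in O than in NB, beside 13.1% and 14.5% of all genes.

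**Figure D5:**
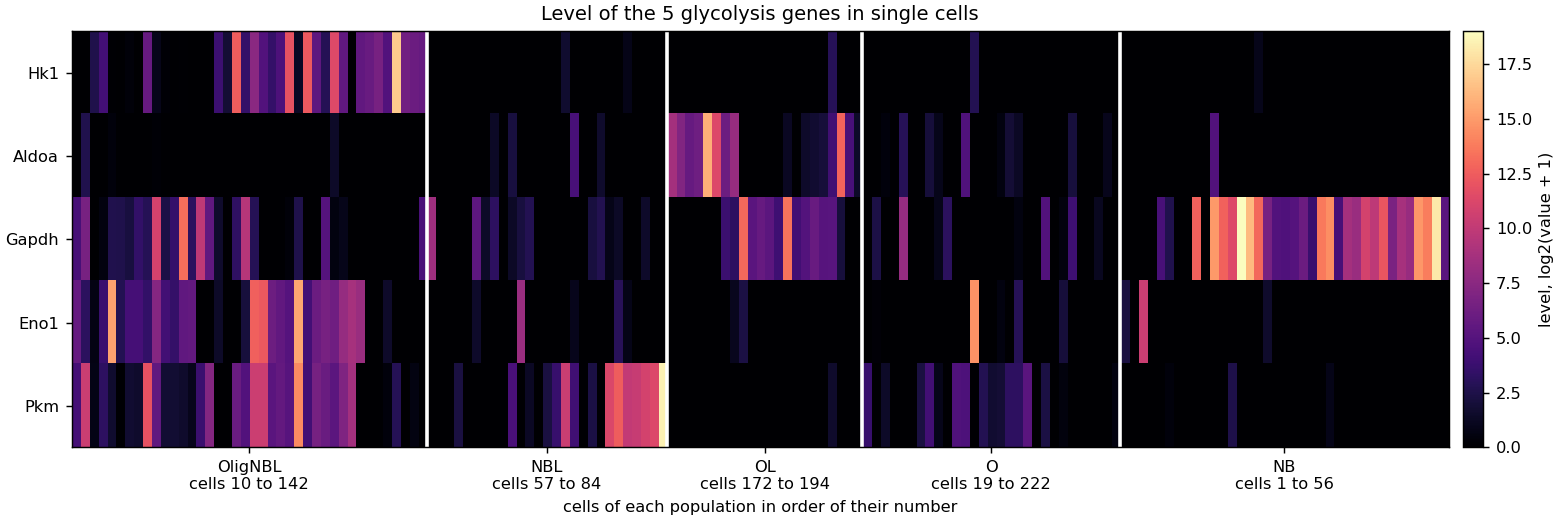
Level of the 5 glycolysis genes, log2(value + 1), in each cell, with cells ordered by number within each population. Blocks of neighbouring cells share a pattern: Pkm in the last 7 NBL cells, Aldoa in the first 8 OL cells, Gapdh in the next 11 OL cells and in most NB cells.

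Of the lists of genes of glucose use 30 genes were measured, 25 of them not members. Slc2a3, the glucose transporter GLUT3, had a level of 4.80 ± 4.04 in OligNBL (n = 40) and was present in 25 of 40 cells, against 1.13 ± 2.53 in NBL, 2.78 ± 3.55 in OL, 0.84 ± 1.59 in O and 0.44 ± 1.46 in NB. Pfkp, a phosphofructokinase of the early pathway, was at 2.21 ± 2.50 in OligNBL and at most 0.64 elsewhere, including 0 in every OL cell. Both were thus higher in OligNBL than in NBL, OL and NB, as Hk1 and Eno1 were. Ldhb, a lactate dehydrogenase subunit, was highest in NBL (2.08 ± 2.15), and Bsg, a partner protein of lactate transporters, in O (5.15 ± 6.11).

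Downstream of pyruvate, Mpc1, a subunit of the mitochondrial pyruvate carrier, was at 5.24 ± 3.81 in OL, against 0.94 ± 2.08 in O. Of 7 citric acid cycle genes, 4 were higher and none lower in OL than in O, among them Mdh2, malate dehydrogenase, by 3.83, and Sucla2, a subunit of succinyl-CoA ligase, by 3.18. Both measured genes of the non-oxidative pentose phosphate pathway, Taldo1 (4.42) and Tkt (1.61), were also higher in OL than in O. Sdha, a subunit of succinate dehydrogenase, was higher in OligNBL than in NB by 3.59. Among regulators, Mtor, the growth kinase, was higher in NBL than in NB by 7.65. Egln2, an oxygen-sensing prolyl hydroxylase, was lower in OligNBL than in NB by a difference of -4.57. Its level was 4.70 in NB and 2.42 in NBL, against 0.13 in OligNBL, 0.26 in OL and 0.31 in O. Gpd1l, a relative of glycerol-3-phosphate dehydrogenase, was higher in OligNBL than in NBL by 3.68. Over the 25 genes, 8 were higher and 6 lower in OligNBL against NBL, 7 and 8 in OligNBL against OL, 13 and 2 in OligNBL against NB, 8 and 2 in NBL against NB, 8 and 1 in OL against O, and 3 and 2 in O against NB. Their median differences were 0.23, -0.04, 1.13, 0.47, 0.34 and 0.25 in that order, and the shares of all genes called are those given above. With a pseudocount of 10 the 13 genes higher in OligNBL than in NB came to 4, while the share of all genes called higher there came to 12.9%.

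The genes most like each member were ranked by Spearman correlation over all cells, among 1780 genes present in at least 10% of cells. For Hk1 they were Lancl2 (0.85), Ccdc97 (0.84) and Zfp763 (0.82), and for Pkm Fem1b (0.71), Ppp1r12a (0.65) and Dxo (0.64). Eno1 had Sh3bgrl (0.71), Sgta (0.62) and Baz2b (0.61), and Aldoa had Bnip3l (0.60), the myelin gene Mal (0.59) and Nkain2 (0.56). Gapdh had its pseudogene Gm7336 first (0.74), followed by Dazap2 (0.54) and Mtmr4 (0.53). The cells share sets and normalization, and no p-value was computed. With each population centred, Aldoa had Tbc1d10b (0.60), Kctd13 (0.59) and Scd2 (0.53) first. Tbc1d10b and Kctd13 lie 388351 and 119771 bases from the nearer of the 2 Aldoa genes on chromosome 7 and 396708 and 128128 bases from the other. These distances were taken after the ranking was seen, and positions of the genes most like the other members were not looked up.

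Promoter windows of 250 bases before to 50 after a start (RefSeq, GRCm38.p6) matched all 5 members, with 11 windows in all. The window richest in CG is shown for Hk1, Eno1 and Pkm, the 3 members that were higher in OligNBL than in both OL and NB. Capitals mark ACGTG on either strand, 1 form of the core to which hypoxia-inducible factor can bind. The other form, GCGTG, was not searched for, marked or counted. They lie at chr10:62340372-62340671 (minus strand), chr4:150236974-150237273 (plus strand) and chr9:59656326-59656625 (plus strand).
Hk1: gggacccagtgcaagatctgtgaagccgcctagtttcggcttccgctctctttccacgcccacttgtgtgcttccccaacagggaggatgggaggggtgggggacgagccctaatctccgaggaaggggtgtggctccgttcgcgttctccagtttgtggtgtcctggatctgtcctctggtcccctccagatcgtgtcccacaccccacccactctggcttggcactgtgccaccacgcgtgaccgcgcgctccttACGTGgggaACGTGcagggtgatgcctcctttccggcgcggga
Eno1: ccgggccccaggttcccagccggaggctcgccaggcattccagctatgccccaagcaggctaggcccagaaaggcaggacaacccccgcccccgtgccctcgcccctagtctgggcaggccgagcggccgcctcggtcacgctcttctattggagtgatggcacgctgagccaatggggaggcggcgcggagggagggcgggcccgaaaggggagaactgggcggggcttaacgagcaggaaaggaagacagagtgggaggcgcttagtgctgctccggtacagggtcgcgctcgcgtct
Pkm: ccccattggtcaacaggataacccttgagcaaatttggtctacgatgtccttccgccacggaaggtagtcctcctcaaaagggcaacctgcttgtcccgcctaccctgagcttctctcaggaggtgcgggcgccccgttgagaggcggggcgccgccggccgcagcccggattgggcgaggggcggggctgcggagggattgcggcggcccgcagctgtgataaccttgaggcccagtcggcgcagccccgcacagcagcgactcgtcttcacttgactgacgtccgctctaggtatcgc
The Hk1 window held 2 matches of ACGTG, starting 7 and 16 bases from the start site. The windows of Eno1 and Pkm shown held no match of ACGTG. The corresponding windows of Aldoa and Gapdh held 1 match each. Of the 11 windows 5 held a match, and so did 19.6% of 32851 windows of all genes. A match is a run of letters and was not tested as a binding site.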

How the data were processed

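Single-cell polyadenylated RNA was measured with SMART-Seq2, with 1 GEO sample per cell. The submitters' processing notes name kallisto, limma and GRCm38; the sources used here give no version, transcript set or reason for the choice of 3422 genes. The deposited table, named estimated counts, was treated as a normalized signal, since in it the authors' 8 highest values were equal in all cells (relative tolerance 1e-06) and totals ran from 5155899 to 5161091. Depth per cell is therefore unknown. No 2 cells had identical values, and 1 NB cell had a lowest value above 0 (0.00585), which was read as 0 for detection.

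Computed here were levels (pseudocount 1), presence among the 500 highest genes, differences of levels (called at a size of 1), and sets of alike cells by average linkage at a mean correlation of 0.4 (20 sets; 149 cells fell in population sets of at least 3 cells). The level step was checked on simulated data with a shift added to some genes, which covers its arithmetic only. Copies were found by aligning GENCODE vM21 transcripts. The members and lists were chosen with earlier results of these data known. Named genes were the members, for each the 3 genes most like it, measured list genes present in at least 10% of the cells of a population, cell type markers and reporters. The Gapdh and Eno1 copies, Iffo1, Hk1os, Actb and Eef1a1 were named after their values were seen. So were the genes most like each member after centring or by Pearson correlation. Tools were Python 3.11.15, numpy 2.4.6, pandas 2.3.3, scipy 1.17.1 and, for figures, matplotlib 3.10.9. The alternatives tried for calls, list genes, members per cell and set means are given with their effect in the closing section. For single values, 21 of 75 presence shares left their interval under other settings, and 17 of 100 levels moved by at least 1 SD between cells. Of 10 other rankings of the genes most like a member, 6 kept at most 1 of its 3 genes.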

Additional observations from a re-analysis of the deposited data

Results flagged for a closer look

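Gapdh differed in opposite directions between lesion and healthy cells of the 2 gates. The difference was -6.77 for NBL minus NB and 2.81 for OL minus O, and the first minus the second was -9.58. Pkm also did, at 4.18 for NBL minus NB and -1.43 for OL minus O, with 5.61 between them. The difference between the gates was not tested, since each population was 1 sample. The Gapdh directions were the same with its 10 close copies (-7.26 and 3.24) and with all 20 (-7.17 and 2.45). The Pkm value in the Tomato gate was -0.44 with a pseudocount of 10.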

How the results depend on the processing

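No paired analysis was possible because no label links cells of different populations, and 1 sample per population allowed no test. Leaving out the 12 early cells, or the NB cell with a lowest value above 0, changed no count of members called. With a pseudocount of 10 the members called lower were 1 in OligNBL against OL (2 before, with all genes at 14.0%) and 0 in OL against O (1 before, all genes 9.001%), and those higher in O against NB were 0 (1 before, all genes 12.7%; 2 with a pseudocount of 0.1, all genes 30.6%). A size of 2 gave the same 1, 0 and 0, beside 12.2%, 7.92% and 12.3% of all genes. A minimum signal of 5 gave 0 in the last 2, beside 29.1% and 31.3% of the genes it keeps. The pseudocount moved most called differences by over 1.5 times: where called, Hk1, Eno1 and Pkm in OligNBL were higher by 2.10 to 2.42 with a pseudocount of 10. At least 1000 genes were detected in 38 of 40 OligNBL, 22 of 27 NBL, 9 of 22 OL, 21 of 29 O and 21 of 37 NB cells, so this filter kept the populations unevenly. Those cells gave 1 member lower in OligNBL against NBL, Pkm at -1.11 (0 before, all genes 20.5%). Set medians weighted equally (all genes 18.7%), and Gapdh summed with 20 copies, each gave 1 lower in OligNBL against OL. Summing reversed Gapdh there, to 0.36. Leaving out each set in turn (added after seeing the data, as were the copies) gave 0 to 1 lower in OligNBL against NBL, 1 to 2 lower in OligNBL against OL, 0 to 1 lower in OL against O and 0 to 1 higher in O against NB, and a Gapdh difference of -2.67 to 0.25 in OligNBL against OL. The Gapdh call in OligNBL against NBL was lost with a pseudocount of 10 (0.82), with at least 1000 genes detected (0.98) and with set medians weighted equally (0.73). List genes called with a pseudocount of 10, of 25, were 3 higher and 3 lower in OligNBL against NBL (all genes 12.8% and 11.02%), 3 higher in OligNBL against OL (13.5%), 4 higher in OligNBL against NB (12.9%), 4 higher in NBL against NB (9.88%) and 1 higher in O against NB (12.7%), where 5 were higher in cells with at least 1000 genes (19.8%). Members per cell with any value above the lowest were 3.10 in OligNBL, 1.41 in NBL, 1.55 in OL and 1.41 in O, and 0.591 in OL among the 250 highest genes. Sets joined at 0.5 gave members apart, in either direction, of 3 in OligNBL against NB, 1 in NBL against NB and 2 in O against NB, beside 28.96%, 9.23% and 35.3% of all genes, and sets joined at 0.35 gave 1 and 2 in the last 2, beside 6.66% and 25.6%. Where no reason is given, the cause was not tested. Unknown depth, 1 sample per population, separate runs of cell numbers and reads that copies of Gapdh or Eno1 can share limit these values.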
